A study of Saccharomyces cerevisiae with 17 samples.

Results

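The first cooling step of a daily temperature cycle took cultures of budding yeast from 30 to 21 °C between hours 0 and 6 of the cycle. It is described here from 2 arrays taken at 21 °C while the temperature fell and 2 arrays taken at 30 °C, which are 4 of the 17 arrays of the series. The arrays were chosen by their titles. The comparison itself and the gene lists used below were chosen with earlier results of these data known. The series asked how yeast responds to daily temperature cycles and how far steady states foretell that response. All cultures were anaerobic, glucose-limited chemostats of CEN.PK113-7D (MATa MAL2-8C SUC2), a haploid strain with constitutive maltose genes and the SUC2 invertase gene, at a dilution rate of 0.03 per h. A chemostat is a continuous culture in which the inflow of fresh medium sets the average growth rate. The groups used below are 21 °C falling (DTC_21_decreasing, hour 6), 12 °C of the cycle (DTC_12, hour 12), 30 °C of the cycle (DTC_30, hour 0), and steady states at a constant 12 °C (SS_12) and 30 °C (SS_30), each with 2 arrays. Temperature followed a 24 h sine curve whose extremes were 30 and 12 °C, and 2 cultures were sampled over 2 late cycles. Which culture gave a cycle array is not labelled. Arrays therefore enter the tests as separate samples, though both sides of a comparison may hold the same cultures, and the spread between 2 arrays may be technical. Some list members named below fall outside the rule for named genes and were chosen after their values were seen.

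Yeast couples its growth to a large part of its transcriptome. When conditions turn unfavourable, the zinc finger activators Msn2 and Msn4 switch on a common set of protective genes while genes for building ribosomes go down, and the reverse happens when growth speeds up. Heat shock factor Hsf1 keeps chaperone genes running and raises them with heat. Cold is known to raise the RNA of the nucleolar protein Nsr1, of RNA helicases, of the cell wall mannoproteins Tip1, Tir1 and Tir2 and of the desaturase Ole1, and to ask for more unsaturated membrane lipids.

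The values are scaled probe set signals of Affymetrix Yeast Genome S98 arrays for 5656 genes, and between 5446 and 5459 of them lay above the signal of spike controls on the 4 arrays. The arrays at 21 °C falling correlated at 0.9835 across genes and those at 30 °C at 0.956, the lowest of the 8 groups of the series. The SPT15 control's 3' to 5' signal ratio was 2.13 and 3.03 at 21 °C falling, against 5.67 and 3.44 at 30 °C. The same ratio of ACT1 was 1.42 and 1.28 at 21 °C falling, against 1.16 and 1.42 at 30 °C. The SPT15 ratio therefore did not overlap between the groups, the ACT1 ratio did, and their part in the results was not tested. Of the markers of the a mating type, 6 of 6 lay above background on all 4 arrays, with summed signals of 10928 and 15572 at 21 °C falling, against 14715 and 20872 at 30 °C. The 4 markers of the other mating type, alpha, lay above background too, with summed signals of 712.9 and 801.4 at 21 °C falling, against 322.1 and 446.5 at 30 °C. Most of that sum was MF(ALPHA)1, a gene for the alpha pheromone, which rose (log2 change 1.45 ± 0.24 SE, adjusted p = 0.00359), and what part other cells had in this was not tested. Signals are relative to each array's scaled total, so less RNA of a gene per cell and fewer cells that hold it cannot be told apart.

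Between 30 and 21 °C, 631 of 5656 genes changed (11.2%), of which 295 rose (5.22%) and 336 fell (5.94%). A gene changed where its adjusted p from limma was under 0.05, and all log2 changes below are 21 °C falling minus 30 °C with their standard error (SE), 2 arrays a group, unless another comparison is named. At least 2-fold rises numbered 210 and at least 2-fold falls 239. The arrays of the groups did not overlap for any of the 631, but neither did they for 54.3% of all genes (28.8% higher and 25.5% lower at 21 °C falling), so that lack of overlap alone marks little with 2 arrays a side. The median change of all genes was 0.03. The arrays weighed heavily on the counts: 191 genes passed without the first array at 21 °C falling, 222 without the second, 304 without the first at 30 °C and 606 without the second.

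**Figure D1:**
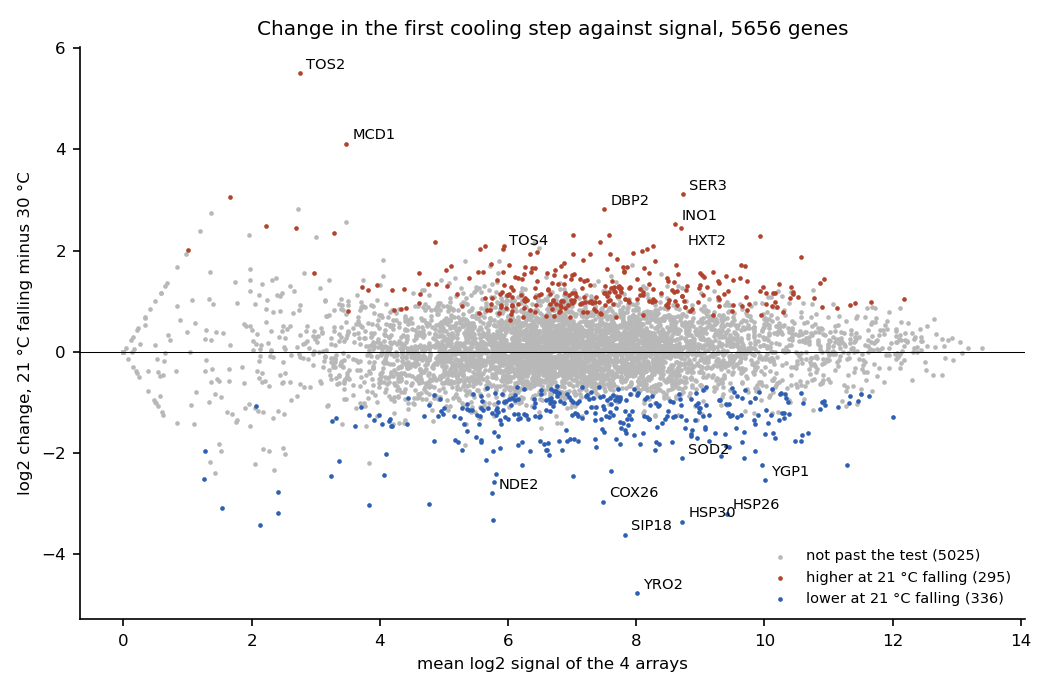
Log2 change in the first cooling step (21 °C falling minus 30 °C, vertical axis) against the mean log2 signal of the 4 arrays (horizontal axis) for 5656 genes; red points are the 295 genes that rose, blue points the 336 that fell and grey points the rest. The stress genes YRO2, SIP18, HSP30 and HSP26 lie among the deepest falls, and SER3, DBP2, INO1 and HXT2 among the largest rises.

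Stress genes fell deeply in the step. The gene lists here and below can share members, so that their counts are not independent of each other. Of 40 targets of Msn2 and Msn4, 25 fell and 0 rose, with a list median of -1.25. HSP26, a small heat shock protein that binds unfolded proteins, gave signals of 183.0 and 277.3 at 21 °C falling, against 2161.4 and 1969.6 at 30 °C. Its arrays lay far apart between the groups and it fell 9.16-fold (log2 change -3.20 ± 0.23, adjusted p = 1.97e-05). YGP1, a secreted glycoprotein linked to the cell wall, gave 386.8 and 476.5 at 21 °C falling, against 2512.2 and 2455.6 at 30 °C (log2 change -2.53 ± 0.21, adjusted p = 4.57e-05). DDR2, a gene that responds to many stresses, gave 961.6 and 1385.3 at 21 °C falling, against 5065.4 and 5769.9 at 30 °C (-2.23 ± 0.21, adjusted p = 0.000165). Both 21 °C arrays of each of these genes lay well below both 30 °C arrays. The strongly expressed HSP12, a membrane-associated hydrophilin, fell less deeply, with 2135.2 and 3276.6 at 21 °C falling, against 6622.8 and 6254.2 at 30 °C (-1.28 ± 0.24, adjusted p = 0.00638). SOD2, the manganese superoxide dismutase of mitochondria, gave 204.9 and 200.3 at 21 °C falling, against 880.0 and 851.4 at 30 °C (-2.10 ± 0.21, adjusted p = 0.000218). Not every target passed the test: the catalase gene CTT1 had a log2 change of -1.11 (adjusted p = 0.0598). The transcript of the regulator MSN4, which is not among the 40 targets, had one of 1.23 (adjusted p = 0.102). Without the first or second array at 21 °C falling, 15 or 18 targets fell, and without the first or second at 30 °C, 19 or 24.

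**Figure D2:**
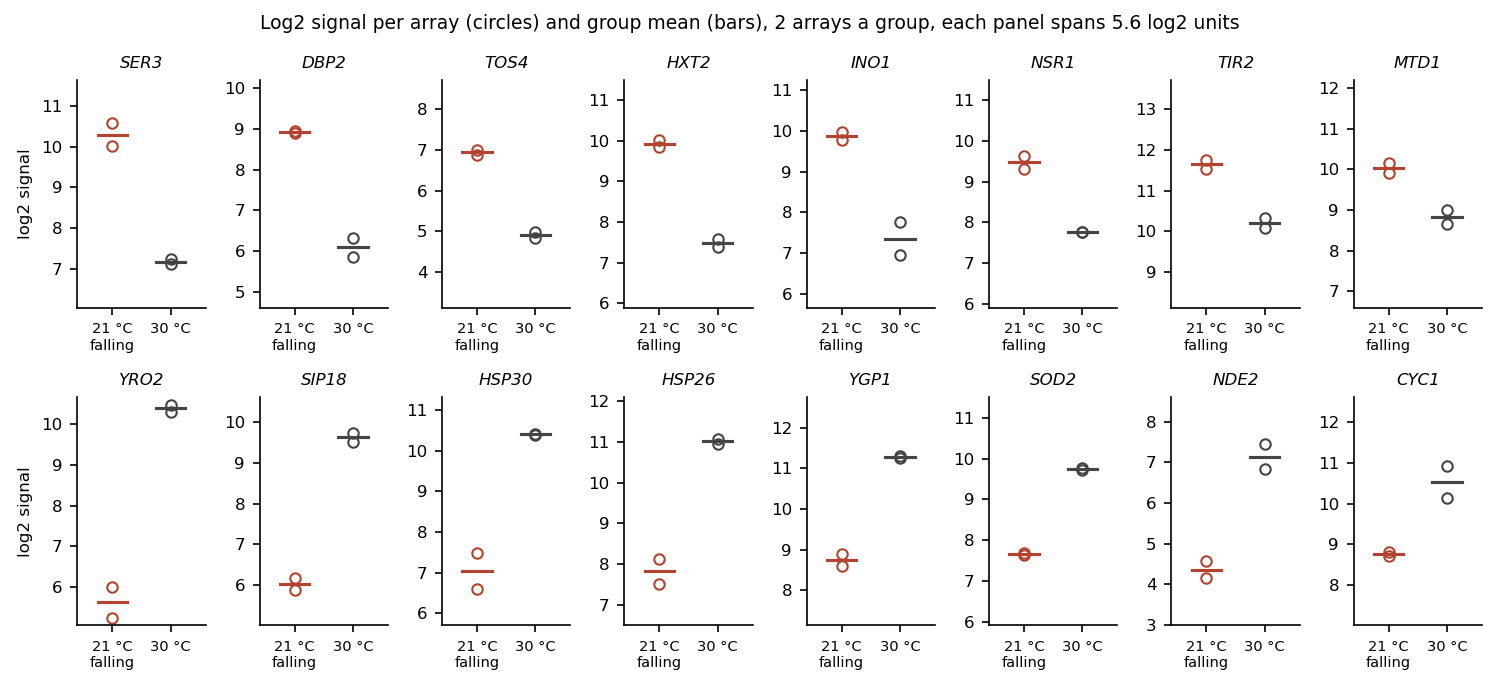
Log2 signal of each array (circles) and group mean (bars) for 16 genes, with 21 °C falling left of 30 °C in each panel and every panel spanning the same range of log2 units. Genes of the upper row rose and genes of the lower row fell, and in no panel do the arrays of the groups overlap.

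Of 30 heat shock chaperone genes, 15 fell and 0 rose (list median -1.06). HSP30, a stress protein of the plasma membrane, gave 97.3 and 179.4 at 21 °C falling, against 1331.3 and 1366.9 at 30 °C. With no overlap it fell 10.2-fold (-3.35 ± 0.29, adjusted p = 7.3e-05). The inducible Hsp90 gene HSP82 gave 684.6 and 996.2 at 21 °C falling, against 3112.5 and 2530.5 at 30 °C (-1.76 ± 0.23, adjusted p = 0.00101). Its constitutive partner HSC82 overlapped between the groups, with 3571.6 and 3904.9 at 21 °C falling, against 3314.7 and 4594.0 at 30 °C (log2 change -0.06, adjusted p = 0.883). AHA1, which stimulates the ATPase of Hsp90, fell by 1.97, CPR6, a cyclophilin, fell by 1.88, and STI1, which bridges Hsp90 to Hsp70, fell by 1.59 on the log2 scale. The inducible Hsp70 gene SSA3 fell by 1.88 and SSA4 by 1.01, while the constitutive SSA1 and SSA2 had log2 changes of -0.45 and -0.11 that did not pass. Chaperones of mitochondria were among the falls, with log2 changes of -1.55 for the disaggregase HSP78, -1.27 for MDJ1 and -1.01 for HSP60. The disaggregase of the cytosol, HSP104, gave 370.5 and 309.8 at 21 °C falling, against 1030.3 and 641.8 at 30 °C (-1.26 ± 0.26, adjusted p = 0.0108). The ring chaperonin CCT, which folds actin and tubulin, stood apart from these: 2 of its 8 genes rose, CCT7 (log2 change 1.54) and CCT8 (0.98), and 0 fell. Falls among heat shock chaperones numbered 10 or 9 without the first or second array at 21 °C falling, and 11 or 15 without the first or second at 30 °C. CCT rises numbered 0, 1, 0 and 3 with these arrays left out in the same order.

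Of 9 hydrophilin and desiccation genes 6 fell and 0 rose, led by SIP18, whose signals were 71.7 and 59.0 at 21 °C falling, against 858.0 and 732.9 at 30 °C (-3.61 ± 0.20, adjusted p = 3.39e-06). GRE1, a related hydrophilin gene, gave 21.5 and 23.5 at 21 °C falling, against 131.4 and 136.2 at 30 °C (-2.57 ± 0.27, adjusted p = 0.000224). Neither gene came near overlap. Of 28 antioxidant genes 6 fell and 0 rose, among them the peroxidase genes GPX1 (-1.44 ± 0.25, adjusted p = 0.00431) and HYR1 (-1.35 ± 0.18, adjusted p = 0.0011). Of 7 trehalose genes 3 fell: TSL1, a regulatory subunit of the synthase (-1.60 ± 0.28, adjusted p = 0.00445), the acid trehalase gene ATH1 (-1.23) and the synthase gene TPS1 (-0.80). Of 14 glycogen genes 5 fell, among them GLC3 (-0.83), the branching enzyme, and GDB1 (-1.02), the debranching enzyme, while the phosphoglucomutase gene PGM1 rose (1.49 ± 0.24, adjusted p = 0.0032). The phosphorylase gene GPH1 had a log2 change of -0.20 (adjusted p = 0.767) and the main glycogen synthase gene GSY2 one of -0.86 (adjusted p = 0.0744). In the pentose phosphate pathway 4 of 11 genes fell, SOL4, NQM1, GND2 and TKL2, each a stress-induced relative of a main enzyme of the pathway. The other 7 had a change above 0 that did not pass, and the list median was 0.41. These small lists lost members without single arrays: with the first and second array at 21 °C falling and the first and second at 30 °C left out in turn, falls numbered 3, 4, 5 and 6 for hydrophilins, 4, 4, 4 and 7 for antioxidant genes, 1, 1, 1 and 4 for trehalose, 0, 1, 1 and 3 for glycogen and 2, 3, 3 and 3 for the pentose phosphate genes.

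Genes of respiration fell although no oxygen was supplied. The respiratory chain and ATP synthase pass electrons to oxygen and make ATP from the proton gradient. Of their 40 genes 21 fell and 0 rose, all 40 had a change below 0, and the list median was -0.92. CYC1, the main cytochrome c gene, gave 447.4 and 419.9 at 21 °C falling, against 1135.3 and 1945.5 at 30 °C. Both 21 °C arrays lay under both 30 °C arrays, which differed much between themselves (-1.78 ± 0.28, adjusted p = 0.00309). COX26, a small protein of cytochrome c oxidase, gave 54.1 and 76.0 at 21 °C falling, against 533.7 and 464.2 at 30 °C (-2.96 ± 0.35, adjusted p = 0.000596). NDE2, a NADH dehydrogenase on the outer face of the inner membrane, gave 17.7 and 23.8 at 21 °C falling, against 174.9 and 113.9 at 30 °C (-2.78 ± 0.28, adjusted p = 0.000192). These 2 were the deepest falls of the list, and the cytochrome c1 gene CYT1 (-1.76 ± 0.23, adjusted p = 0.000992) and the succinate dehydrogenase gene SDH3 (-1.60 ± 0.27, adjusted p = 0.00359) fell like CYC1. Of 68 genes for proteins of the mitochondrial ribosome 16 fell and 0 rose, with smaller sizes, between -0.74 and -1.20, and a list median of -0.60. In the TCA cycle 2 of 13 genes fell, KGD2 (-0.96) and KGD4 (-1.25), both of the ketoglutarate dehydrogenase complex. The regulator gene HAP4, which drives respiratory genes, gave 726.4 and 575.9 at 21 °C falling, against 1379.1 and 920.4 at 30 °C, with no overlap but a change that did not pass (-0.80 ± 0.38, adjusted p = 0.193). Leaving out the first or second array at 21 °C falling left 9 or 13 respiratory falls, and leaving out the first or second at 30 °C left 12 or 15. For the mitochondrial ribosome the same order gave 4, 0, 2 and 13 falls, and for the TCA cycle 0, 1, 0 and 2.

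Gluconeogenesis and fat breakdown, which glucose represses, fell in part. Of 17 genes of gluconeogenesis and the glyoxylate cycle 6 fell and 0 rose. CAT8, the activator of these genes, gave 29.3 and 25.8 at 21 °C falling, against 114.2 and 100.8 at 30 °C (-1.96 ± 0.35, adjusted p = 0.00478). PCK1, the first committed enzyme of gluconeogenesis, gave 732.5 and 768.2 at 21 °C falling, against 1600.5 and 2252.0 at 30 °C (-1.34 ± 0.39, adjusted p = 0.0471). The fructose bisphosphatase gene FBP1 fell too (-1.23). In none of the 3 genes did the groups overlap. PCK1, though, lost its call in 11 of 17 alternative settings. Among these were values floored at 12, array weights, a replicate block and a fit of only the cycle arrays. Its log2 change ranged from -1.59 to -1.09 over the 17 settings. Of 19 genes of peroxisomal beta-oxidation 6 fell, among them the thiolase gene POT1 (-1.32 ± 0.25, adjusted p = 0.00735) and the carnitine acetyltransferase gene CAT2 (-1.48 ± 0.33, adjusted p = 0.0147). Falls in gluconeogenesis numbered 2, 3, 4 and 4, and in beta-oxidation 2, 2, 3 and 6, without the first and second array at 21 °C falling and the first and second at 30 °C in turn.

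Genes for building ribosomes rose together. Ribosomes are assembled in the nucleolus, where the small-subunit processome and a large set of assembly factors cut, modify and fold the RNA that RNA polymerase I makes. Of 70 genes of large-subunit assembly 24 rose and 0 fell (list median 0.81), and of 64 processome genes 17 rose and 0 fell (0.73). DBP2, an RNA helicase, gave 474.1 and 491.8 at 21 °C falling, against 58.1 and 80.0 at 30 °C. It rose 7.08-fold without overlap (2.82 ± 0.20, adjusted p = 1.97e-05). NSR1, the nucleolin-like protein known for its response to cold, gave 633.7 and 800.8 at 21 °C falling, against 218.0 and 216.7 at 30 °C (1.71 ± 0.27, adjusted p = 0.00265). NOP13, an RNA-binding protein of the nucleolus, gave 333.4 and 274.6 at 21 °C falling, against 72.4 and 86.1 at 30 °C (1.94 ± 0.26, adjusted p = 0.00102). NOP56, a core protein of the methylation guide particles, had a wider spread at 30 °C and gave 488.6 and 497.5 at 21 °C falling, against 95.4 and 255.8 at 30 °C (1.66 ± 0.36, adjusted p = 0.0124). Of 37 genes of RNA polymerases I and III 6 rose, led by RRN3, the polymerase I initiation factor (1.39 ± 0.31, adjusted p = 0.0147). The ribosomal proteins themselves did not share this: 1 of 81 cytosolic ribosomal protein genes rose, RPL22B (1.17 ± 0.26, adjusted p = 0.0153), and the list median was 0.18. Of 38 translation factor genes 4 rose (10.5%, against 5.22% of all genes). Among them were TEF4 (1.20), an elongation factor subunit, and GCD11 (0.94), a subunit of the initiation factor that brings the first tRNA. By limma 0 of 18 aminoacyl-tRNA synthetase genes and 0 of 34 proteasome genes passed the adjusted test (3 and 6 at an unadjusted p under 0.05), though 18 and 32 of them had a change above 0. For large-subunit assembly 6, 6, 13 and 19 genes rose without the first and second array at 21 °C falling and the first and second at 30 °C in turn. The processome had 1, 2, 5 and 20 rises and the polymerases 0, 1, 0 and 7 in the same order. Cytosolic ribosomal proteins had 0, 0, 1 and 10 and translation factors 1, 0, 2 and 3.

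**Figure D3:**
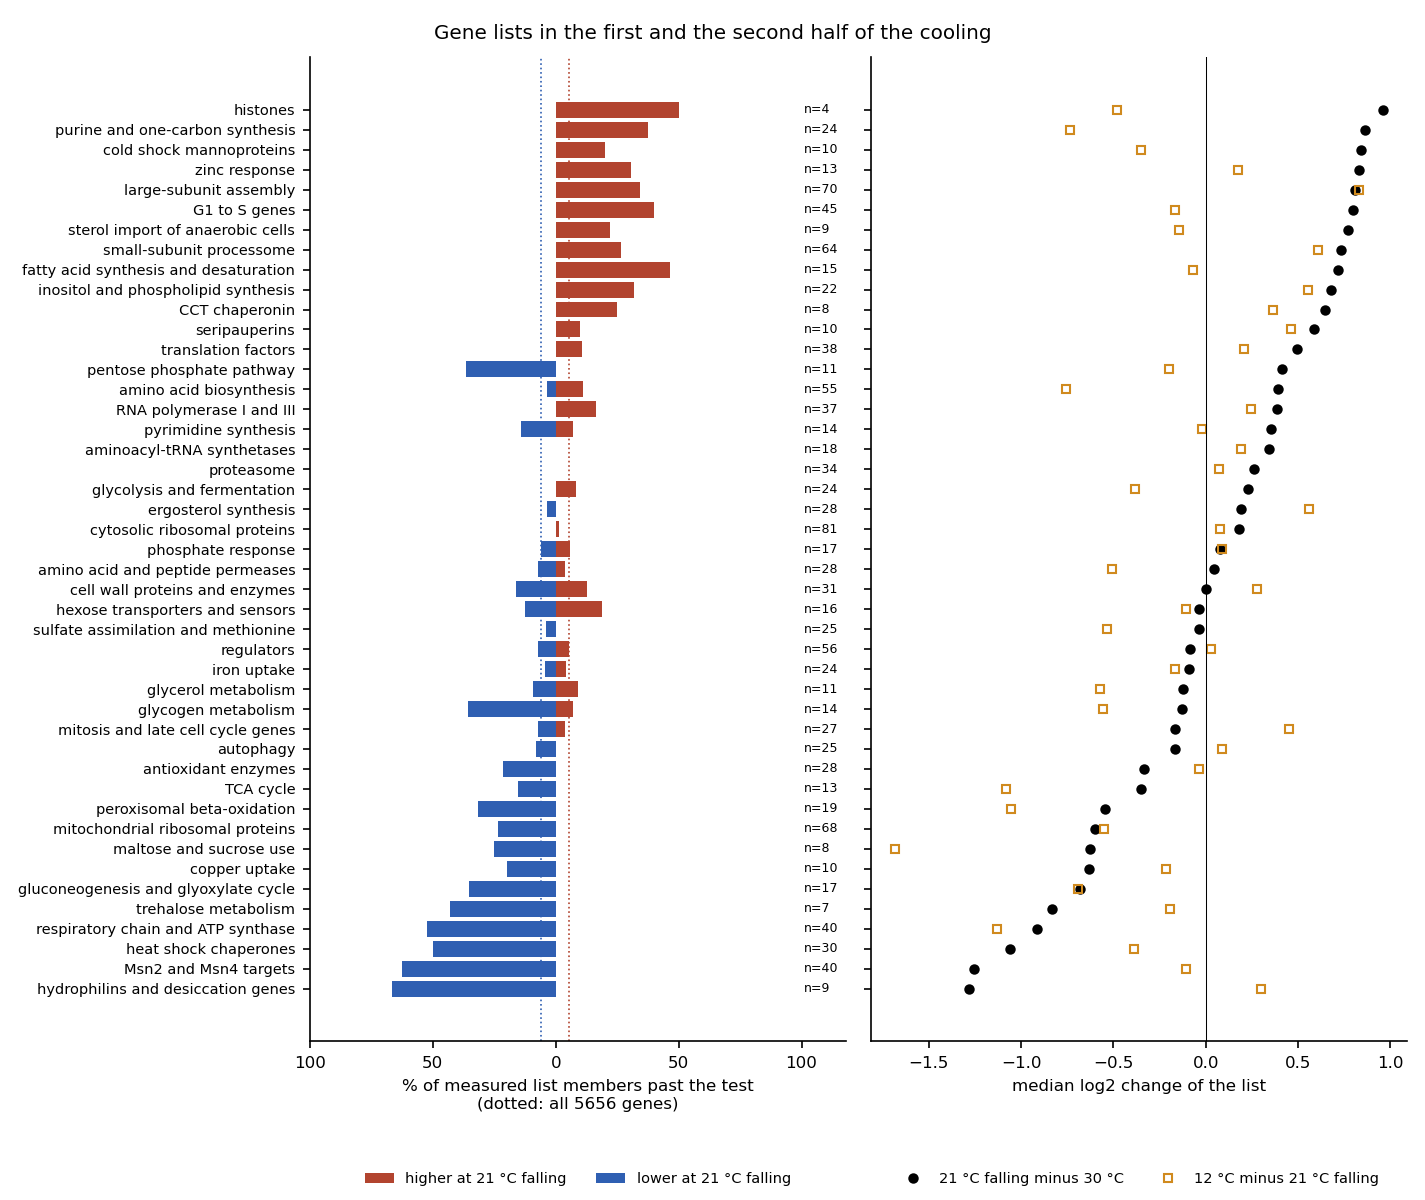
Gene lists ordered by their median change. The left panel gives the percentage of measured members (n) that rose (red, to the right) or fell (blue, to the left) at 21 °C falling against 30 °C, with dotted lines at the 5.22% and 5.94% of all genes; the right panel gives the list's median log2 change in the first cooling step (black circles) and in the later one, 12 °C minus 21 °C falling (orange squares). Hydrophilins and Msn2 and Msn4 targets lie at the bottom and histones and purine genes at the top of the order, and the steps share the 21 °C falling arrays.

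Genes that cells use as they commit to division were higher. The transition from G1 to S phase is driven by the factors SBF and MBF, whose targets include G1 cyclins and the enzymes that copy DNA. Of 45 such genes 18 rose and 0 fell (list median 0.80). MCD1, the cohesin subunit that holds sister chromatids, gave 45.4 and 47.5 at 21 °C falling, against 7.2 and 0.6 at 30 °C. The second 30 °C array was under background, so that the fitted rise (4.11 ± 0.72, adjusted p = 0.00463) is uncertain in size. RNR1, the large subunit of ribonucleotide reductase, gave 1483.4 and 1522.7 at 21 °C falling, against 534.5 and 397.4 at 30 °C (1.71 ± 0.27, adjusted p = 0.00266). TOS4, an SBF target, gave 128.1 and 117.3 at 21 °C falling, against 28.6 and 31.4 at 30 °C (2.03 ± 0.18, adjusted p = 7.3e-05). PCL1, a G1 cyclin, gave 261.7 and 277.6 at 21 °C falling, against 76.9 and 76.6 at 30 °C (1.81 ± 0.23, adjusted p = 0.000772). In all 4 genes the replicates of 21 °C falling lay close together and above both 30 °C arrays. HO, the mating type switching endonuclease and an SBF target, rose as well (1.99 ± 0.19, adjusted p = 0.000167). So did the G1 cyclin gene CLN1 (0.93 ± 0.26, adjusted p = 0.0418) and the S-phase cyclin gene CLB6 (1.56 ± 0.35, adjusted p = 0.0165). Of 4 histone genes with a probe set of their own 2 rose, HTB2 for histone H2B (1.46 ± 0.30, adjusted p = 0.00992) and HHO1 for linker histone (1.19). Of 27 genes of mitosis and its exit 1 rose and 2 fell: CLB1, a mitotic cyclin gene, rose (2.10 ± 0.30, adjusted p = 0.00161), and PCL9 (-1.18) and EGT2 (-0.98) fell. That is 11.1% of the list, near the 11.2% of all genes, so the list as a whole does not stand out. G1 to S rises numbered 8 or 10 without the first or second array at 21 °C falling, and 10 or 12 without the first or second at 30 °C, and histone rises 0, 0, 1 and 1.

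Serine, one-carbon and purine genes rose. Serine gives folate its one-carbon units, which build purine rings. SER3, which starts serine synthesis, gave 1034.7 and 1521.5 at 21 °C falling, against 151.5 and 137.6 at 30 °C. Its groups lay far apart and it rose 8.69-fold (3.12 ± 0.25, adjusted p = 4.01e-05), with the last enzyme of the branch, SER2 (1.68 ± 0.30, adjusted p = 0.00544). Of 24 purine and one-carbon genes 9 rose and 0 fell (list median 0.86). SHM2, the cytosolic serine hydroxymethyltransferase, gave 1907.7 and 1893.8 at 21 °C falling, against 710.3 and 803.2 at 30 °C (1.33 ± 0.24, adjusted p = 0.00484). ADE4, the first enzyme of purine synthesis, gave 112.1 and 81.4 at 21 °C falling, against 40.3 and 13.5 at 30 °C (2.03 ± 0.50, adjusted p = 0.0246). IMD4, an IMP dehydrogenase of the guanine branch, gave 390.2 and 400.5 at 21 °C falling, against 71.7 and 170.6 at 30 °C (1.84 ± 0.36, adjusted p = 0.00821). For ADE4 and IMD4 the 30 °C arrays differed widely, and lack of overlap held for every gene past the test. Over 17 alternative settings the log2 change ranged from 1.245 to 2.82 for ADE4 and from 1.21 to 2.46 for IMD4. MTD1 (1.20 ± 0.20, adjusted p = 0.00378), ADE17 (1.16 ± 0.27, adjusted p = 0.0183) and the glycine cleavage genes GCV1 (0.82) and GCV2 (1.54) rose too, as did ADE1 (1.18) and ADE2 (0.90). IMD4 has close relatives in the genome, so that its probe set may read more than 1 gene. Of 55 amino acid biosynthesis genes 6 rose and 2 fell (14.5% of the list, against 11.2% of all genes). The rises included LYS9 (2.03 ± 0.29, adjusted p = 0.00143) and HIS1 (1.28), and the falls were GDH3 (-1.43 ± 0.23, adjusted p = 0.00309), a glutamate dehydrogenase, and CPA1 (-0.83), of arginine synthesis. Purine and one-carbon rises numbered 2, 2, 4 and 8, and amino acid rises 5, 5, 6 and 7, without the first and second array at 21 °C falling and the first and second at 30 °C in turn.

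Genes of inositol and fatty acid synthesis rose, and no ergosterol gene did. Of 22 inositol and phospholipid genes 7 rose and 0 fell. INO1, the synthase that makes inositol, gave 995.9 and 877.8 at 21 °C falling, against 122.9 and 215.6 at 30 °C (2.52 ± 0.34, adjusted p = 0.00102). INO2, the activator of INO1, gave 97.3 and 163.4 at 21 °C falling, against 20.4 and 42.8 at 30 °C (2.09 ± 0.50, adjusted p = 0.0215). ITR1, which imports inositol, rose (1.88 ± 0.33, adjusted p = 0.00443), as did CHO1, the phosphatidylserine synthase (1.51 ± 0.31, adjusted p = 0.0105). For INO1 and INO2 alike the arrays of 21 °C falling lay above both 30 °C arrays. Of 15 genes of fatty acid synthesis and desaturation 7 rose, both fatty acid synthase subunits FAS1 (1.17 ± 0.29, adjusted p = 0.0263) and FAS2 (1.36 ± 0.33, adjusted p = 0.0215) and the elongase genes ELO1, ELO2 and ELO3 (0.85, 0.97 and 1.13) among them. A second, dim probe set of FAS2 fell (log2 change -1.20). The desaturase gene OLE1, known to respond to cold, did not pass: its signals were 4716.7 and 5587.0 at 21 °C falling, against 4533.1 and 4315.6 at 30 °C (0.21 ± 0.19, adjusted p = 0.514). Of 28 ergosterol genes 0 rose and ERG5 fell (-0.94 ± 0.26, adjusted p = 0.0378). Anaerobic yeast cannot make sterols and imports them. Of 9 genes of that import 2 rose, HES1, an oxysterol-binding protein (1.93 ± 0.26, adjusted p = 0.00102), and DAN1, an anaerobic mannoprotein of the cell wall (1.05 ± 0.25, adjusted p = 0.0207). Inositol and phospholipid rises numbered 2, 3, 4 and 6, fatty acid rises 1, 1, 1 and 5, and sterol import rises 1, 1, 3 and 2, without the first and second array at 21 °C falling and the first and second at 30 °C in turn.

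Of 10 cold shock and anaerobic mannoprotein genes 2 rose, TIR2 and DAN1. The list median was 0.84, and 9 of the 10 had a change above 0. TIR2 gave 2982.3 and 3440.2 at 21 °C falling, against 1278.3 and 1093.1 at 30 °C (1.44 ± 0.25, adjusted p = 0.00431), with no overlap. TIR1 gave 7095.5 and 10310.7 at 21 °C falling, against 5738.0 and 8728.3 at 30 °C (0.27 ± 0.27, adjusted p = 0.568). TIP1 gave 7767.5 and 9575.7 at 21 °C falling, against 6988.7 and 10913.7 at 30 °C (-0.02 ± 0.27, adjusted p = 0.981). For TIR1 and TIP1 the groups overlapped. Of 10 seripauperin genes, near-identical cell wall genes whose probe sets may read several members, PAU10 rose (1.08). Of 31 genes of other cell wall proteins and enzymes 4 rose and 5 fell. YGP1, given above with the stress genes, belongs to this list too and had its deepest fall. FKS1, the glucan synthase of growing cells, was among the rises (0.88 ± 0.21, adjusted p = 0.0202), and DSE4, a glucanase that parts daughter from mother, among the falls (-1.41 ± 0.30, adjusted p = 0.0112). Mannoprotein rises numbered 1, 1, 1 and 4, and cell wall rises 0, 0, 0 and 2 and falls 2, 2, 2 and 5, without the first and second array at 21 °C falling and the first and second at 30 °C in turn.

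HXT2, a high-affinity glucose transporter, gave 1029.4 and 911.5 at 21 °C falling, against 192.4 and 165.6 at 30 °C. It rose 5.43-fold without overlap (2.44 ± 0.22, adjusted p = 9.92e-05), with HXT4 (1.57 ± 0.39, adjusted p = 0.0248) and the glucose sensing gene STD1 (0.86). HXT5, the transporter of slow growth, gave 21.9 and 30.4 at 21 °C falling, against 93.7 and 82.8 at 30 °C (-1.77 ± 0.33, adjusted p = 0.00679), and HXT10 fell too (-2.45). Hexose transporters are close relatives, so that probe sets may read more than 1 of them. HXK2, the hexokinase of glucose-grown cells, gave 2392.5 and 2648.5 at 21 °C falling, against 1319.6 and 1103.2 at 30 °C (1.06 ± 0.21, adjusted p = 0.00821), and MIG2, a glucose-induced repressor, rose (2.17 ± 0.40, adjusted p = 0.00586). Apart from HXK2 and PDC5 (1.10), none of 24 glycolysis and fermentation genes passed the test. SUC2 gave 1719.1 and 1681.2 at 21 °C falling, against 2923.5 and 2248.0 at 30 °C, without overlap but short of the test (-0.59 ± 0.22, adjusted p = 0.0997). Of 13 zinc-regulated genes 11 had a change above 0 (list median 0.83) and 4 rose, IZH1 (1.06 ± 0.18, adjusted p = 0.00413), IZH2 (1.29), IZH4 (1.40) and FET4 (1.44), a low-affinity iron transporter also counted under iron. In the copper list 9 of 10 genes had a change below 0 (list median -0.63) and 2 fell. CRS5, a metallothionein, gave 353.4 and 410.2 at 21 °C falling, against 1219.6 and 1134.6 at 30 °C (-1.63 ± 0.19, adjusted p = 0.000493), and the copper transporter CTR3 fell (-1.41 ± 0.28, adjusted p = 0.00914). Of 28 permease genes MEP2, for ammonium, rose (1.16 ± 0.27, adjusted p = 0.0189), and MEP3 (-1.29) and MUP1, for methionine (-1.31), fell. In all 10.7% of the permease list passed, near the 11.2% of all genes. Zinc rises numbered 4, 3, 4 and 4 without the first and second array at 21 °C falling and the first and second at 30 °C in turn, and copper falls 1, 1, 2 and 2. Hexose rises numbered 1, 2, 3 and 1 and falls 0, 1, 1 and 2.

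Some of the largest changes fell outside these lists. YRO2, a membrane protein related to Hsp30, had the deepest fitted fall of the 336, with 38.0 and 64.4 at 21 °C falling, against 1429.2 and 1264.8 at 30 °C (-4.76 ± 0.50, adjusted p = 0.000224). YIG1 gave 15.3 and 19.2 at 21 °C falling, against 148.0 and 199.4 at 30 °C (-3.33 ± 0.35, adjusted p = 0.000224). PRR2, a protein kinase gene, gave 9.4 and 9.8 at 21 °C falling, against 99.5 and 59.5 at 30 °C (8.02-fold lower, adjusted p = 0.000621). All 3 were far from overlap, and YKL107W fell by 3.02. TOS2, a protein of the site of polarised growth, gave 47.6 and 43.5 at 21 °C falling, against 1.0 and 0.9 at 30 °C. Both 30 °C arrays were under background, so that it was at least 7.00-fold higher at 21 °C falling (adjusted p = 0.00341). By the same bound ADY4 was at least 3.39-fold higher (adjusted p = 0.0115), YJL047C-A at least 2.31-fold (adjusted p = 0.0439), the small nucleolar RNA SNR46 at least 1.71-fold (adjusted p = 0.0246) and RIF2, a telomere protein, at least 1.41-fold (adjusted p = 0.0107). Lower by such a bound were CSM4, at least 2.46-fold (adjusted p = 0.00821), ECM8, at least 2.22-fold (adjusted p = 0.00934), and FMP48, at least 1.31-fold (adjusted p = 0.0043). All genes given by a bound here but TOS2 lost their call with values floored at 12. Over 17 alternative settings the smallest log2 change was 0 for RIF2 and FMP48, 0.13 for SNR46, 0.40 for YJL047C-A and 0.88 for ADY4. It was -0.27 for ECM8 and -0.42 for CSM4. Of the 631 genes, 15 had 1 group under background and 2 had both.

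The later cooling step, 12 °C minus 21 °C falling, covered the same 9 °C in the same 6 h. It changed 827 genes (14.6%), 364 up (6.44%) and 463 down (8.19%), and this fell to 539 and 258 without the first and second array at 12 °C and to 326 and 196 without the first and second at 21 °C falling. The steps share the arrays of 21 °C falling, which enter with opposite sign, so their values are only set side by side and the difference was tested gene by gene (first step minus later step). This difference passed for 175 genes (3.09%), 86 higher (1.52%) and 89 lower (1.57%). Ribosome assembly went on in the same direction: in the later step 28 of 70 large-subunit genes rose (median 0.83), and by limma 0 differed between the steps after adjustment (7 did at an unadjusted p under 0.05). Respiratory genes also went on, with 30 of 40 falling in the later step (median -1.13). With the first and second array at 12 °C and the first and second at 21 °C falling left out in turn, these later counts were 21, 10, 9 and 7 for large-subunit assembly and 25, 10, 16 and 3 for respiration. They differed for NDE2 and CYT1, whose falls were deeper in the first step: CYT1 had log2 changes of -1.76 and then 0.28 ± 0.23 (difference -2.03 ± 0.39, adjusted p = 0.0206). Both calls were lost without either array at 21 °C falling. Stress lists differed in how they went on. Of the 40 Msn2 and Msn4 targets 3 rose and 7 fell in the later step (median -0.11), and 6 differed, all lower in the first. YGP1 changed by -2.53 in the first step and by 1.12 ± 0.21 in the later (difference -3.66 ± 0.36, adjusted p = 0.000553). Of 30 heat shock chaperone genes 7 fell and 0 rose in the later step (median -0.39), and 5 differed, all lower in the first, HSP30 and AHA1 among them. That count was 3 and 0 without the first and second array at 12 °C, 0 and 1 without those at 21 °C falling, and 1 and 5 without those at 30 °C.

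Purine and one-carbon genes rose in the first step and fell in the later one. Of 24 purine and one-carbon genes 11 fell and 0 rose in the later step (median -0.74), and 9 differed, all higher in the first. MTD1 changed by 1.20 in the first step and by -2.11 ± 0.20 in the later (difference 3.31 ± 0.35, adjusted p = 0.000683), and GCV2 by 1.54 and -2.24. SER3 changed by 3.12 and then by -1.13 ± 0.25 (difference 4.25 ± 0.43, adjusted p = 0.000553), and HXT2 by 2.44 and then by -0.84 ± 0.22 (difference 3.28 ± 0.38, adjusted p = 0.00147). Of 55 amino acid genes 22 fell in the later step and 6 differed, all higher in the first. Inositol and phospholipid genes kept their direction, with 5 of 22 rising and 0 falling in the later step (median 0.55). Of 45 G1 to S genes 2 fell in the later step (median -0.17), and 5 differed, all higher in the first, HO (difference 3.19), TOS4 (2.54) and PCL1 (2.43) with the largest values. In the TCA cycle 4 of 13 genes differed, all higher in the first step. IDH2, a subunit of isocitrate dehydrogenase, had log2 changes of 0.12 ± 0.18 (adjusted p = 0.721) in the first step and -2.25 ± 0.18 in the later (difference 2.37 ± 0.31, adjusted p = 0.00248). SUC2 had log2 changes of -0.59 and then -3.15 ± 0.22 (difference 2.56 ± 0.37, adjusted p = 0.00438), and MEP2 by 1.16 and then by -3.01 ± 0.27 (difference 4.17 ± 0.47, adjusted p = 0.00104). The number of genes that differed rests on the arrays they share: it was 31 and 26 without the first and second array at 21 °C falling, 102 and 274 without the first and second at 30 °C, and 124 and 70 without the first and second at 12 °C. SER3, HXT2 and YGP1 passed in each of 19 alternative settings. Without the first and second array at 21 °C falling, the purine and one-carbon count fell to 2 and 1, the amino acid count to 1 and 1, the TCA count to 1 and 0, the G1 to S count to 2 and 2, and the Msn2 and Msn4 count to 2 and 1. The Msn2 and Msn4 count was also 2 without the second array at 12 °C and 3 without the first at 30 °C.

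**Figure D4:**
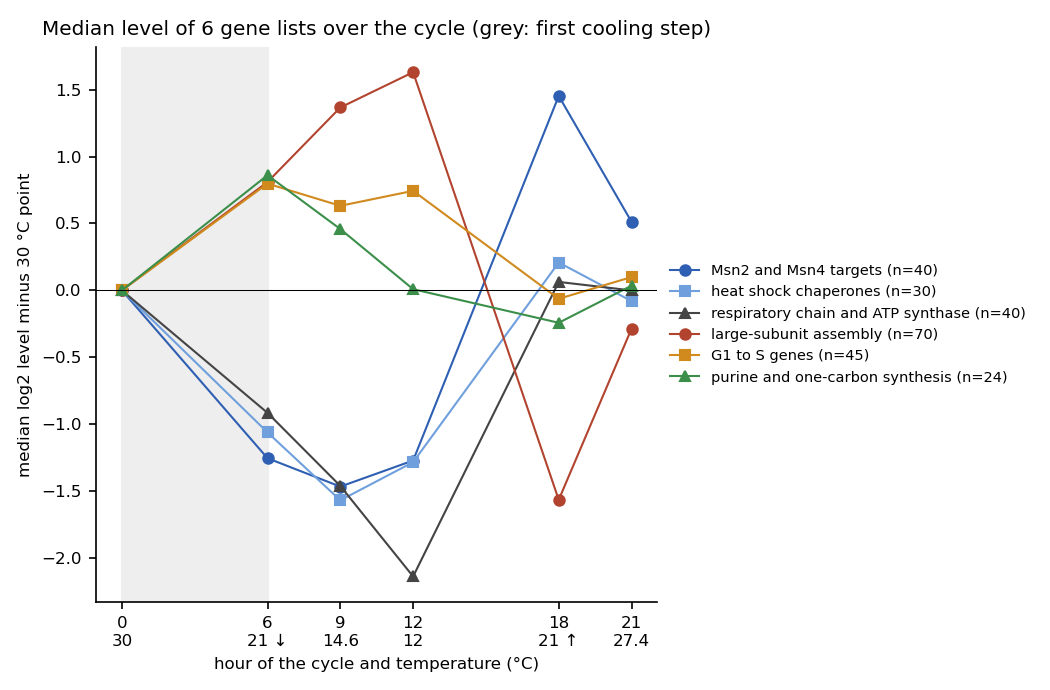
Median log2 level of 6 gene lists, minus their level at 30 °C, over the 6 sampled points of the cycle (horizontal axis: hour, with temperature in °C); the grey band marks the first cooling step. Msn2 and Msn4 targets had medians of -1.25 at hour 6 and -1.27 at hour 12, while large-subunit assembly had 0.81 and 1.63.

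The steady states, at 12 and 30 °C, lie further apart than the 21 and 30 °C of the first cooling step. Differences between the effects therefore mix the span and end point of the cooling with cycling against constant temperature, which cannot be told apart here. The steady-state comparison, a constant 12 °C minus a constant 30 °C, shares no array with the first cooling step. It changed 1256 genes (22.2%), 564 up (9.97%) and 692 down (12.2%), or 730 up and 567 down once array medians were centred, which moved the median of all genes by 0.12. Across genes, which are not independent replicates, the first step and the steady-state effect correlated weakly (Pearson r = 0.270, Spearman rho = 0.240). Genes that rose in both numbered 92, which is 31.2% of the rises in the first step and 16.3% of those at steady state. Genes that fell in both numbered 127 (37.8% and 18.4%), and 29 went opposite ways. The difference between the effects, first step minus steady state, passed for 456 genes (8.06%), 245 higher (4.33%) and 211 lower (3.73%), or 186 higher and 302 lower with centred medians, a scaling that moved the median difference of all genes by -0.17. Of the 631 genes of the first step 157 (24.9%) differed from the steady-state effect, 65 of the rises and 92 of the falls. Without the first and second array at a constant 12 °C and the first and second at a constant 30 °C in turn, the steady-state count was 565, 954, 602 and 671 and the count of differences 216, 491, 217 and 208. That count was 187 and 226 without the first and second array at 21 °C falling, and 273 and 536 without the first and second at 30 °C of the cycle.

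Heat shock genes fell in both comparisons, and part of the other stress genes differed between them. HSP26 changed by -3.20 in the first step and by -3.83 at steady state (difference 0.63 ± 0.32, adjusted p = 0.243), and HSP30 by -3.35 and -4.27. Of 30 heat shock chaperone genes 14 fell at steady state, and by limma 0 differed between the effects after adjustment (7 did at an unadjusted p under 0.05). YGP1, which fell in the step, rose at steady state (0.91, adjusted p = 0.00906, difference -3.44 ± 0.29, adjusted p = 0.000118). DDR2 had a steady-state change of -0.16 (difference -2.07 ± 0.30, adjusted p = 0.00261) and HSP12 one of 0.59 (difference -1.87 ± 0.34, adjusted p = 0.00717). In all, 8 of 40 Msn2 and Msn4 targets were lower in the step than at steady state, against 3.73% of all genes, and 1, FMP45, was higher. Of 68 mitochondrial ribosomal protein genes 15 were lower in the step, and of 40 respiratory genes 8, with CYT1 at -1.76 in the step and 0.48 at steady state (difference -2.23 ± 0.32, adjusted p = 0.00246). The copper transporter gene CTR3 went opposite ways, -1.41 in the step and 2.42 at steady state (difference -3.83 ± 0.40, adjusted p = 0.000323).

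Higher in the step than at steady state were 5 of 45 G1 to S genes and 10 of 28 permease genes, against 4.33% of all genes. PCL1 changed by 1.81 in the step and by -0.80 at steady state (difference 2.61 ± 0.32, adjusted p = 0.000932), while SER3 had log2 changes of 3.12 and 0.48 (difference 2.64 ± 0.35, adjusted p = 0.00141). Among the permeases, AGP1, for many amino acids, had log2 changes of 0.03 in the step and -3.84 at steady state, and DIP5, for acidic ones, -0.004 and -6.86. Cytosolic ribosomal protein genes, of which 30 of 81 rose at steady state and 1 in the step, differed for 2 genes, both lower in the step, which is 2.47% of the list against 3.73% of all genes. Neither call held without either array at 21 °C falling, without the first array at a constant 12 °C or without the first at a constant 30 °C. YGP1, CYT1, CTR3, PCL1, SER3, AGP1 and DIP5 passed the test of this difference in each of 20 alternative settings. The list counts moved: without single arrays the respiratory count lay between 1 and 9, the mitochondrial ribosomal count between 1 and 16, the Msn2 and Msn4 count between 3 and 7, the G1 to S count between 3 and 8 and the permease count between 7 and 11.

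**Figure D5:**
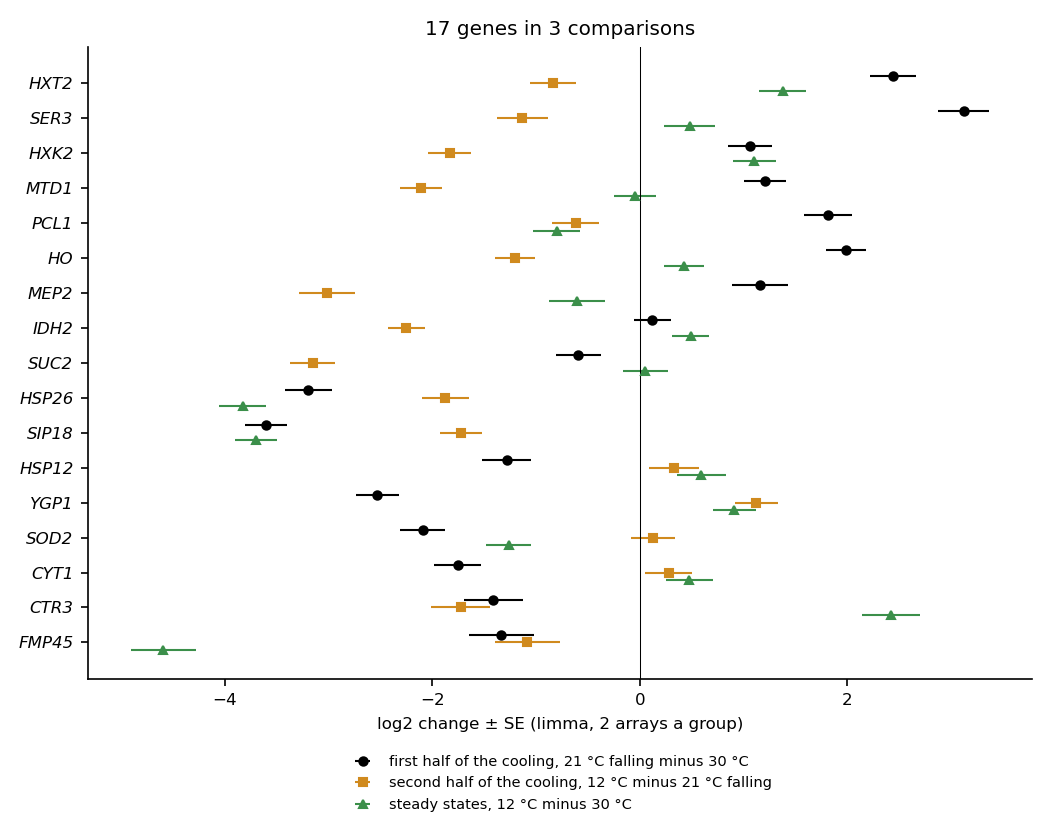
Log2 change ± SE of 17 genes in the first cooling step (black circles), the later cooling step (orange squares) and the steady-state comparison (green triangles), 2 arrays a group. The SE uses the spread over all 16 arrays of the fit. HXT2, SER3, HXK2 and MTD1 lie to the right in the first step and to the left in the later one, and CTR3 lies left in both steps and right at steady state.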

How the data were processed

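Total RNA (200 ng an array) of chemostat cultures was hybridised to Affymetrix Yeast Genome S98 arrays with a 3' labelling kit, per the labels' protocols. The deposited values are linear intensity values per probe set. RMA is named in the submitters' processing notes, with no version, but the deposited intensity values reach 0 and have the same mean of 240.2 on every array after trimming 2% at each end, so how the authors scaled them is not settled. Values were floored at 1 and put on a log2 scale. Of 9335 probe sets, 6504 have 1 gene, 328 several, 2443 are unlisted and 60 are controls. Each of 5656 genes took its probe set of highest mean. Background was the 95th percentile of 15 poly-A control sets (a signal of 6.50). A gene with both arrays of a group under it has only a bound there, given as at least N-fold, which sets the bright group's mean against the background signal.

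All 8 groups entered 1 limma fit (16 arrays, 1 mean a group, eBayes, two-sided, Benjamini-Hochberg over all genes, adjusted p under 0.05), and an extra array at 27.4 °C was left out because that point holds an analytical duplicate. The number of arrays, 2 a group, limits the precision. The labels do not say that a shared replicate number marks a shared culture. The deviations of same-numbered arrays correlated at 0.04 between 21 °C falling and 30 °C, and at -0.40 to 0.49 over all pairs of groups, so the numbers were not used to pair arrays. On simulated data the fit of the first step recovered 1.49% of changes of 0.5 log2 units, 20.9% of changes of 1 and 78.8% of changes of 2. It called 4 unchanged genes. The simulated data held 67, 67 and 66 changed genes of these sizes, with independent normal noise, no floor and otherwise equal group means. The real step called 631 genes, so these rates need not hold for it. Even so, a change that did not pass may be a missed one. Tools were R 4.3.3, limma 3.58.1, statmod 1.5.0, Python 3.11.15, pandas 2.3.3, numpy 2.4.6 and matplotlib 3.10.9. Alternatives covered scaling, floor, dim genes, probe set choice, variance model, samples, thresholds, a replicate block and each array left out.

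The comparison and the 47 gene lists were chosen with earlier results of these data known. Genes were named by rule: the 10 largest rises and falls without overlap, up to 2 risen and 2 fallen members a list, the 5 largest differences in each direction between the steps and from the steady state, and a list of index genes. Other list members named in the text were chosen after their values were seen. Promoter sequences were not analysed here.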

Additional observations from a re-analysis of the deposited data

Results flagged for a closer look

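The cooling steps differed for 175 genes, and the first step and the steady-state effect for 456 genes, each by a test of the difference itself. The largest differences between the steps (first minus later, log2) were 7.74 for TOS2, 5.09 for CTF13, 5.02 for PDH1, 4.52 for DMC1 and 4.46 for IDH1 among those higher in the first step. Among those lower in it they were -6.45 for YMR230W-A, -6.29 for FMP48, -5.95 for MTC7, -5.72 for YNCL0007W and -5.41 for YOR268C. IDH1, a subunit of isocitrate dehydrogenase, gave 700.1 and 858.4 at 21 °C falling, against 217.5 and 545.2 at 30 °C, and its change in the first step did not pass (1.17, adjusted p = 0.156). Signals near or under background make most of these sizes uncertain. Over 19 alternative settings the smallest sizes were -0.58 for YOR268C, -0.09 for MTC7, -0.99 for YNCL0007W, -2.57 for YMR230W-A, 1.25 for CTF13 and 3.82 for TOS2, and that of FMP48 was 0 to the precision of the fit. FMP48, MTC7, YNCL0007W, YOR268C and DMC1 lost their call with values floored at 12. PDH1 kept its call in 17 of the 19 settings, IDH1 in 13 and YMR230W-A in all 19.

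The largest differences from the steady-state effect (first step minus steady state, log2) were 6.85 for DIP5, 6.40 for SUF16, 5.87 for YNCK0003W, 5.72 for YNCP0009W and 5.65 for FUI1, a uridine permease gene. In the other direction they were -7.33 for YNCK0017W, -6.48 for YNCL0007W, -5.66 for YNCM0020W, -4.49 for FAA1, a fatty acid activating enzyme, and -4.20 for YNCD0013C. The sizes are uncertain here too. Over 20 alternative settings the smallest were -1.37 for YNCK0017W, -1.90 for YNCL0007W, -2.42 for YNCM0020W, -0.67 for YNCD0013C, 2.14 for YNCK0003W and 2.60 for FUI1. YNCK0017W, YNCM0020W and YNCD0013C lost their call with values floored at 12. DIP5 stayed between 6.45 and 7.26. SUF16 and the genes whose names begin with YNC make non-coding RNA, and where they have near-identical copies a probe set cannot tell these apart. Of 2443 probe sets without a gene name, 61 passed the test in the first cooling step, 27 higher and 34 lower at 21 °C falling.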

How the results depend on the processing

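The count of 631 genes in the first cooling step ranged from 191 to 606 with single arrays left out and was 222 at an adjusted p under 0.01. It was 1 when the fit held only the 4 arrays compared, which have 2 residual degrees of freedom. Fitted on the compared groups alone, the later step had 324 genes, the difference between the steps 19, the steady-state effect 685 and the difference from it 211. At an adjusted p under 0.01 these were 266, 46, 561 and 130. With single arrays left out they ranged from 196 to 539, from 26 to 274, from 565 to 954 and from 187 to 536. Array weights gave 336 genes for the difference between the steps. The other alternatives kept the first step between 449 (at least 2-fold) and 705 (trended and robust variance), within 1.5 times of 631. With the replicate number as a block the first step had 644 genes and the later step 812, and the block moved no count by over 1.5 times. Of 110 named genes past the test, over 1870 alternatives, 1423 kept their call, 447 lost it and 0 changed sign. TOS2 kept its call in the fit of the 4 arrays. Its signals in the warmer group lay under background and at or near the floor, which leaves that group almost no spread. With 2 residual degrees of freedom, this call therefore cannot tell a well-measured change from an effect of the floor.

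Changes near 0 turned sign in genes that did not pass. YNCD0013C had -0.11 after quantile normalization and ranged from -0.13 to 0.25 with single arrays left out (-0.07 without the second at 30 °C). DIP5 ranged from -0.20 to 0.20 (0.07 without the first at 21 °C falling), GPH1 from -0.60 to 0.20, SUF16 from -0.048 to 2.31, TIP1 from -0.34 to 0.30 (0.13 without the first at 21 °C falling), TIR1 from -0.029 to 0.58 and YNCK0003W from -0.15 to 1.41. Median centring and quantile normalization turned the sign of the list median for cell wall genes and centring that for permeases, so neither list has a direction here. The cause was not tested for any of these.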
